A study of Mus musculus with 7 samples.

Results

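The Mirg cluster is the downstream part of the imprinted Dlk1-Dio3 locus on mouse chromosome 12, a dense run of miRNA genes from miR-379 to miR-410, with miR-3072 beyond it. Its mature miRNAs were measured by small RNA sequencing in cells sorted from the embryonic mouse spinal cord. The members were chosen by name, as arms of hairpins in this stretch, and comprise 60 of the 1908 mature miRNA rows in the deposited tables. They come from 35 hairpins, 25 of them with both arms among the members, and divide into 28 5p and 32 3p arms. At E10.5, spinal cords of Hb9::gfp embryos, in which GFP marks Hb9-expressing motoneurons, were sorted by FACS into GFP-positive cells (motoneurons, 2 libraries) and GFP-negative cells (all other cells of the dissected cord, 2 libraries). At E12.5 there was 1 library each of Hb9::gfp GFP-positive motoneurons, of V2a interneurons from Chx10::cre;Rosa26::LSL::tdTomato embryos and of V3 interneurons from Sim1::cre;Rosa26::LSL::tdTomato embryos. In the interneuron lines Cre removes a stop cassette, so tdTomato marks cells that express Cre or descend from cells that expressed it. The sort took tdTomato-positive cells. The labels do not say whether replicates are different embryos, litters or sorts. A p-value therefore reflects only how far these particular libraries differ, and that can be technical. The 2 stages are in separate tables with separate scaling, and groups were compared within a stage only.

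The Dlk1-Dio3 locus is expressed by parental origin: protein-coding genes such as Dlk1 come from the paternal chromosome, while the long noncoding RNAs Meg3, Rian and Mirg and the miRNAs embedded in or near them come from the maternal one. Many of the miRNAs are thought to be cut from long shared precursor transcripts, and 1 hairpin can yield a 5p and a 3p mature arm. A mature miRNA loaded into an Argonaute protein pairs with messenger RNAs chiefly through its seed, bases 2 to 8, and lowers their output. In neurons the cluster is known for activity-dependent transcription and for miR-134, which acts on dendrite and spine growth, together with miR-329 and miR-381.

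Of the members, 56 had a mature sequence and position in RefSeq (GRCm38.p6), all on the plus strand of chromosome 12 between 109709065 and 109747949, a span of 38.9 kb. In the GENCODE M21 annotation of GRCm38, the Mirg long noncoding RNA gene runs from 109729764 to 109749460. Of the placed members, 36 lay upstream of that gene model, 13 in its introns and 7 in its exons. The mature sequences below are those on which the results turn, written 5′ to 3′ with the seed in capitals. The first set holds arms of the hairpins at the upstream end of the cluster, where the differences at E10.5 were among the largest, together with the members that share a seed.

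mmu-miR-379-5p: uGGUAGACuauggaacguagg
mmu-miR-1193-5p: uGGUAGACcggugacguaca
mmu-miR-411-5p: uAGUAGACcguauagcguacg
mmu-miR-379-3p: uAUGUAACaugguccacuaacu
mmu-miR-411-3p: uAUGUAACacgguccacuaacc

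miR-379-5p (chr12:109709065-109709085) and miR-1193-5p (chr12:109715716-109715735) share the seed GGUAGAC, and miR-379-3p and miR-411-3p share AUGUAAC. Among the 56 members with a sequence no others shared a seed, and no other mature miRNA of the tables with a RefSeq sequence carried either of these seeds. All 5 arms lie upstream of the Mirg gene model. The next set holds abundant members with the pairs whose sequences are compared below, miR-543-3p with miR-495-3p and miR-381-3p with miR-300-3p.

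mmu-miR-541-5p: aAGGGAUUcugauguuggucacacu
mmu-miR-543-3p: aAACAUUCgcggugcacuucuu
mmu-miR-495-3p: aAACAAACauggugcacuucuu
mmu-miR-381-3p: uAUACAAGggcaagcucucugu
mmu-miR-300-3p: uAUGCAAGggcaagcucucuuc
mmu-miR-134-5p: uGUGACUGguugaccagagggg

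miR-541-5p (chr12:109742422-109742446) lies in an intron of Mirg and miR-134-5p (chr12:109734145-109734166) in an exon. The other members of that set lie upstream of the gene model, miR-543-3p at chr12:109717304-109717325 and miR-381-3p at chr12:109726870-109726891. The last set holds both arms of miR-369 and miR-329, hairpins in which the leading arm was not the same in all libraries.

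mmu-miR-369-5p: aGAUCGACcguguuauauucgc
mmu-miR-369-3p: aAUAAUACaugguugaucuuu
mmu-miR-329-5p: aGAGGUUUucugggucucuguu
mmu-miR-329-3p: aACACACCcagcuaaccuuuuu

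miR-369-3p (chr12:109743466-109743486) is intronic in Mirg and miR-329-3p (chr12:109713541-109713562) lies upstream of it. Several 3p arms of the cluster also share letters around the end of the seed. The letters ACACGG, read on the RNA strand, were in 5 of 56 members (8.93%), namely miR-154-3p, miR-323-3p, miR-411-3p, miR-485-3p and miR-494-3p, and in 2 of 1623 other mouse mature miRNAs with a RefSeq sequence (0.123%). They ran from base 7 to base 12, starting within the seed, in 4 of these members, and from base 9 to base 14 in miR-494-3p. The shorter CACGG, which each of those matches contains, was in 6 of 56 members (10.7%) and 18 of 1623 others (1.11%). Both strings were picked after the sequences were seen.

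Depths were 493203 to 802724 reads at E10.5 and about 3602916 to 4603812 reads at E12.5, so a miRNA at 0 could have up to 3 reads, or 3.74 to 6.08 RPM (reads scaled to a library total of 1000000) at E10.5 and 0.668 to 0.844 TPM (the same scale, corrected for length) at E12.5. These limits and the counting intervals below allow for counting error alone, because reads copied by PCR from 1 molecule are not independent. The miR-218 list, which marks motoneurons, summed to 177957 and 200357 RPM in the E10.5 motoneuron libraries against 6623 and 7320 in the GFP-negative ones, and to 104218 TPM in E12.5 motoneurons against 7560 in V2a and 7284 in V3. The 10 rows of a mesenchymal and smooth muscle list (miR-199, miR-214, miR-143 and miR-145 arms) summed to 81413 and 94290 RPM in GFP-negative cells and to 1571 and 424 in motoneurons, where miR-145a-3p was at 0 in both libraries.

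The first comparison asked how the Mirg-cluster miRNAs stood in motoneurons against the other cells of the cord at E10.5. Summed over all members, they made up 69451 and 79393 RPM of the GFP-negative libraries and 43545 and 44352 RPM of the motoneuron libraries. The groups did not overlap, and the log2 ratio of the summed levels was -0.76, against an SD of 0.10 between replicates. As shares of all miRNA reads these sums are 6.95% and 7.94% in GFP-negative cells and 4.35% and 4.44% in motoneurons. In bulk libraries, fewer cells that express a miRNA and less of it per cell cannot be told apart.

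The test required 2 or more libraries with at least 15.2 RPM (worth 10 reads in a library of median depth), and 47 of the 60 members met this. In motoneurons 23 of the 47 (48.9%) were lower and 0 were higher by limma at an adjusted p under 0.05, with fold changes on the log2(RPM + 1) scale. Over all 492 miRNAs tested, 30.7% were lower and 11.6% were higher. At an unadjusted p under 0.05, 29 members (61.7%) were lower and 0 higher, where 52.6% of all tested miRNAs passed in either direction. The groups did not overlap in 34 members, all lower in motoneurons, against 48.6% of all tested miRNAs lower without overlap. The median log2 fold change of the 47 was -0.74, against -0.34 for all tested miRNAs, and 38 members lay below that overall median. The values ran from -2.02 to 0.26, with 44 negative and 3 positive (miR-323-5p, miR-543-3p and miR-668-3p). Only 2 members passed the abundance filter through the GFP-negative libraries alone, and 0 passed through the motoneuron libraries alone. The 2 were miR-299a-5p, which was called lower, and miR-382-3p, which was not called. Both are among the 34, and for them the filter had already fixed that the groups did not overlap.

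The count moved with the scaling of the libraries. With the deposited RPM the median of all tested miRNAs was -0.34, and with median of ratios scaling it was -0.00. Under the latter, 15 members (31.9%) were lower, against 23.6% of all, and 1, miR-543-3p, was higher, while all tested miRNAs divided into 94 higher and 116 lower in place of 57 and 151. The members' median was then -0.39. When the mesenchymal and muscle lists were left out of the totals, 29 members (61.7%) were lower and 0 higher, with a median of -0.87, and 33.5% of all were lower. Whether mesenchymal or other cells among the GFP-negative cells supply part of the cluster's miRNAs was not tested. With the second motoneuron library left out, 13 of 45 members (28.9%) were lower, close to the 25.4% of all miRNAs tested then. With quantile normalization 25.5% of the members were lower, against 19.9% of all. At an unadjusted p under 0.05 in either direction, members then passed less often than all miRNAs, at 34% against 52.8%. The same held with median of ratios and with TMM scaling (38.3% against 51.6% in each). It also held with the 5 most abundant miRNAs left out of the totals (38.3% against 51.2%).

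**Figure D1:**
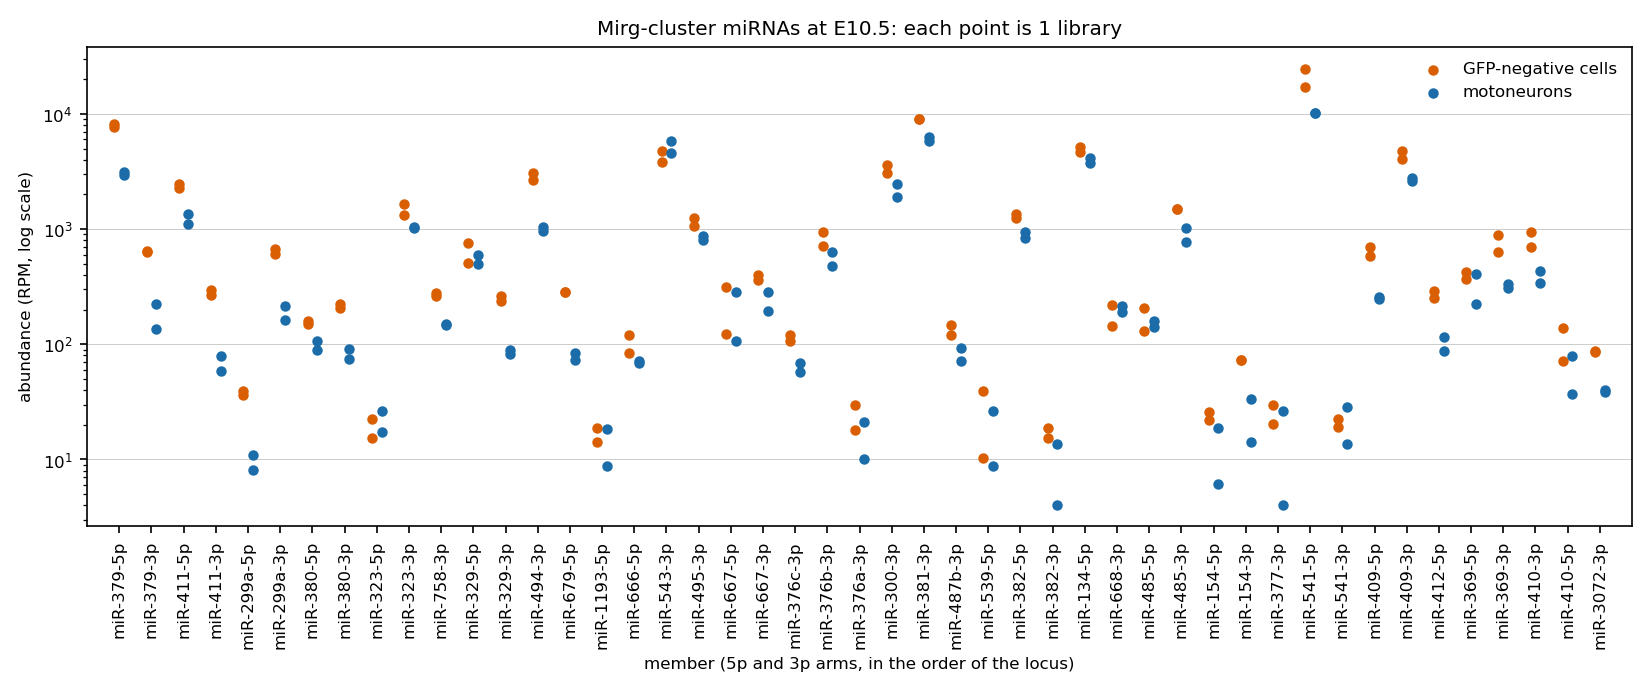
Abundance of the 47 tested members in each E10.5 library, in RPM on a log scale, with orange points for the 2 GFP-negative libraries and blue points for the 2 motoneuron libraries, in the order of the locus. Most blue points lie below the orange ones, and those of miR-543-3p lie among the highest and overlap the orange ones.

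The most abundant members were compared per length, as mean RPM over the 4 libraries per 22 nt. miR-541-5p was highest at 13681, followed by miR-381-3p at 7539, miR-379-5p at 5761, miR-543-3p at 4743 and miR-134-5p at 4444. This order pools both groups: by RPM, miR-379-5p ranked 3 among members in each GFP-negative library and 5 in each motoneuron library, and miR-543-3p ranked 6 and 5 in the former and 3 in the latter. miR-541-5p alone held 23.2% to 31.1% of the summed members. Its levels were 17051 and 24655 RPM in GFP-negative cells and 10204 and 10277 RPM in motoneurons. The GFP-negative libraries differed from each other more than the motoneuron libraries did, and both lay above them. In motoneurons it fell by 1.002 on the log2 scale (SE 0.20, limma adjusted p = 0.00662), a call that was lost when either motoneuron library was left out.

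miR-381-3p, named with miR-134 above for dendrite growth, had 9065 and 8976 RPM in GFP-negative cells and 6325 and 5790 RPM in motoneurons. It was called lower (log2 fold change -0.58, SE 0.14, limma adjusted p = 0.0164), and it was not past the threshold under median of ratios scaling (-0.23). It shares a bundle, the table's group of rows with common reads, with miR-300-3p, so the division of reads between them is uncertain. miR-300-3p had 3633 and 3052 RPM in GFP-negative cells and 2475 and 1910 in motoneurons, a log2 fold change of -0.61 (limma adjusted p = 0.0401), which changed sign under quantile normalization and was lost, like that of miR-381-3p, under the scalings other than deposited RPM and totals that omit the mesenchymal and muscle lists. Both calls were lost when either motoneuron library was left out. That of miR-300-3p was also lost without the first GFP-negative library and with a filter that removed only rows at 0 in every library. The 2 miRNAs have different seeds and share a run of 16 nt.

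miR-134-5p, the regulator of dendritic spines, was among the least different of the abundant members. It had 4704 and 5208 RPM in GFP-negative cells against 3746 and 4120 RPM in motoneurons. The groups did not overlap, but the log2 fold change of -0.33 did not pass (limma adjusted p = 0.119), and it sat at the median of all tested miRNAs. It was slightly above 0 under 4 other scalings (at most 0.29, with quantile normalization). miR-543-3p had 3853 and 4782 RPM in GFP-negative cells and 4566 and 5770 RPM in motoneurons. These groups overlapped, and the fitted difference did not pass (log2 fold change 0.26, SE 0.19, limma adjusted p = 0.309). It passed as higher with median of ratios scaling (0.60), TMM factors (0.59), library totals that leave out the 5 top miRNAs (0.63) and quantile normalization (0.86).

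miR-495-3p, which shares a run of 12 nt with miR-543-3p, had 1074 and 1244 RPM in GFP-negative cells and 805 and 878 RPM in motoneurons (log2 fold change -0.46, limma adjusted p = 0.0808). miR-323-3p had 1313 and 1658 RPM against 1031 and 1034 (-0.51, limma adjusted p = 0.0638). Neither passed, though in both the groups did not overlap, and both changed sign under quantile normalization (0.30 and 0.27). miR-409-3p had 4063 and 4734 RPM in GFP-negative cells and 2635 and 2753 in motoneurons. It was called lower (-0.70, limma adjusted p = 0.0112), and it lost that call with either motoneuron library left out and under median of ratios, TMM and top-5 scaling, and changed sign under quantile normalization.

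The largest differences lay at the upstream end. miR-379-5p had 8143 and 7751 RPM in GFP-negative cells and 2962 and 3138 RPM in motoneurons. Replicates lay close together and far from the other group, and the level fell in motoneurons (-1.38 on the log2 scale, SE 0.14, limma adjusted p = 0.000568). miR-379-3p, from the same hairpin, had 643 and 628 RPM against 224 and 135.8 (-1.86, SE 0.28, limma adjusted p = 0.00267). miR-411-5p, from the next hairpin, had 2262 and 2449 RPM against 1109 and 1348 (-0.94, SE 0.18, limma adjusted p = 0.0059), and changed sign under quantile normalization. miR-411-3p had 266 and 295 RPM against 79.7 and 58.8, the largest fall among the members at -2.02 (SE 0.28, limma adjusted p = 0.00181). miR-379-3p and miR-411-3p share a bundle with each other and a seed, so reads could be split between them. miR-1193-5p, which carries the seed of miR-379-5p, was scarce, at 14.2 and 18.6 RPM in GFP-negative cells and 8.72 and 18.3 in motoneurons, and did not pass (-0.33).

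Other members within this stretch fell by as much. miR-299a-3p had 672.5 and 607 RPM in GFP-negative cells against 213 and 162 in motoneurons (-1.78, SE 0.23, limma adjusted p = 0.00152), and miR-299a-5p had 36.1 and 39.0 against 10.9 and 8.11 (-1.89, SE 0.40, limma adjusted p = 0.00935). Both share bundles with the arms of miR-299b, so the division of reads is uncertain. miR-299a-5p entered the test only through the GFP-negative libraries, where it is high, so its call had to be a fall. With either of those libraries left out, it no longer met the filter and was not tested. miR-494-3p had 2686 and 3087 RPM against 1045 and 971 (-1.51, SE 0.17, limma adjusted p = 0.000775). miR-679-5p had 282 in both GFP-negative libraries against 84.7 and 73.0 (-1.83, SE 0.25, limma adjusted p = 0.00181). In these 4 arms each motoneuron library lay far below each GFP-negative library. miR-329-3p, another of the dendritic miRNAs, had 235 and 262 RPM against 88.5 and 83.1 (-1.52, SE 0.25, limma adjusted p = 0.00363), while its partner arm miR-329-5p overlapped between groups (511 and 761 against 600 and 501).

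At the downstream end, miR-412-5p had 251 and 288 RPM in GFP-negative cells and 87.2 and 116 RPM in motoneurons (-1.41, SE 0.27, limma adjusted p = 0.00608). miR-154-3p had 73.3 and 72.4 RPM against 33.6 and 14.2 (-1.69, SE 0.47, limma adjusted p = 0.0263). Its motoneuron replicates differed more than 2-fold, and it lost its call when either GFP-negative library or the second motoneuron library was left out. The call was also lost with quantile normalization and with a filter that removed only rows at 0 in every library. miR-369-3p had 887 and 637 RPM against 333 and 310 (-1.22, SE 0.23, limma adjusted p = 0.00604), a call lost under quantile normalization, and miR-410-3p 945 and 698 against 433.5 and 340.6 (-1.08, limma adjusted p = 0.0106). Without the second motoneuron library, or with median of ratios scaling or quantile normalization, miR-410-3p was no longer called.

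Members that were lower under each of the 6 scalings tried numbered 12, namely both arms of miR-379 and of miR-299a, miR-411-3p, miR-380-3p, miR-329-3p, miR-494-3p, miR-679-5p, miR-541-5p, miR-409-5p and miR-412-5p. Of these, 10 were also lower with each library left out in turn, the exceptions being miR-299a-5p and miR-541-5p. miR-299a-5p passed the filter through GFP-negative cells alone, so it was not tested when either of those libraries was left out. The alternative that sums the rows of a bundle does not enter these counts. Among 3p arms 15 of 27 tested were lower, with a median of -0.84, and among 5p arms 8 of 20, with a median of -0.61. Over all 492 tested miRNAs 30.7% were lower, with a median of -0.34, and these were not divided by arm. Arms of 1 hairpin come from 1 precursor and are not independent of each other.

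The position in the cluster was then set against the fold change. In the first 7 kb, from miR-379 to miR-1193, 11 of 16 tested members were lower, with a median of -1.38. Between 7 and 24 kb, from miR-666 to miR-539, 2 of 10 were lower (median -0.55), and from 24 kb on 10 of 18 (median -1.03). Of all 492 tested miRNAs, 30.7% were lower (median -0.34). The 2 called in the middle stretch were miR-300-3p and miR-381-3p, which share a bundle and lost their calls under the scalings given above. The division points were set after the values were seen, and 3 tested members without coordinates are left out. By the annotation, 13 of 26 tested members upstream of the Mirg gene model were lower (median -0.64) and 10 of 18 within it (median -1.03). The 18 are the same members as those from 24 kb on, and the 26 are the other stretches pooled, so this is not a separate observation.

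**Figure D2:**
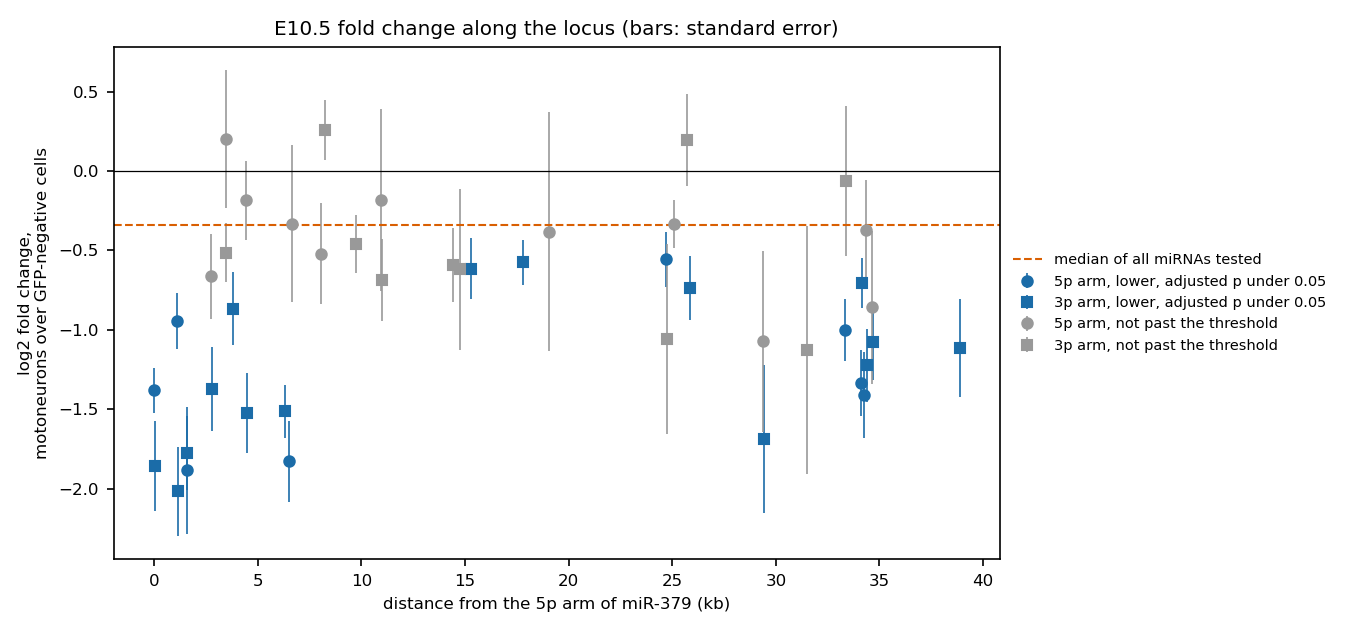
Log2 fold change of motoneurons over GFP-negative cells at E10.5 for 44 tested members against the distance from miR-379-5p in kb, with bars for the standard error, circles for 5p and squares for 3p arms, and blue for members called lower by limma. The dashed line is the median of all tested miRNAs, -0.34, and most of the lowest points lie in the first 7 kb.

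For the rest of the miRNAs of the locus, a list of 36 rows upstream of miR-379 (among them miR-127, miR-136, miR-370, miR-431, miR-433 and miR-434) was read from the same fit. Of its 24 tested rows, 11 were lower and 1 was higher, with a median of -0.83, beside -0.74 for the Mirg-cluster members. Over all tested miRNAs 30.7% were lower and 11.6% higher, with a median of -0.34. The 36 rows summed to 73077 and 72935 RPM in GFP-negative cells and to 60663 and 58471 RPM in motoneurons, again without overlap. The higher row of the list was miR-770-3p (1.12, SE 0.24, limma adjusted p = 0.00978), and its lowest was miR-665-3p (-1.63, SE 0.26, limma adjusted p = 0.00346).

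Of the 13 members under the abundance filter, miR-654-3p and miR-654-5p were at 0 in all 4 E10.5 libraries. The others were miR-666-3p, miR-543-5p, miR-495-5p, miR-376b-5p, miR-376a-5p, miR-300-5p, miR-381-5p, miR-487b-5p, miR-539-3p, miR-134-3p and miR-496a-3p. Most are the weaker arm of their hairpin, as miR-134-3p is, at 0 and 3.71 RPM in GFP-negative cells and 1.25 and 2.03 in motoneurons.

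The balance of the 2 arms within a hairpin does not depend on how a library is scaled. The log2 ratio of 5p over 3p was compared between groups at E10.5 in 117 hairpins with both arms past the filter. In 14 of them both arms are members. The hairpins of miR-1193, miR-679 and miR-3072, whose partner arm is not a member, are among the 117 but not the 14. By limma 0 of the 14 and 0 of all 117 passed an adjusted p of 0.05, which is 0% of those tested. At an unadjusted p under 0.05 there were 2 of 14, against 20 of 117 (17.1%). Those 2 were miR-329 and miR-411. miR-411-3p shares a bundle with miR-379-3p, so the arm ratios of both hairpins depend on how those reads were divided. The log2 ratio of 5p over 3p for miR-329 was 1.12 and 1.54 in GFP-negative cells and 2.76 and 2.59 in motoneurons, with a difference of 1.34 (SE 0.31, limma adjusted p = 0.1501). That of miR-411 differed by 1.07 (SE 0.36, limma adjusted p = 0.247). The groups did not overlap in 9 of the 14 hairpins, against 54.7% of all hairpins tested.

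The second comparison set E12.5 motoneurons beside V2a and V3 interneurons. With 1 library each there is no replicate check, so no test was made and each difference is one between these libraries. The members summed to 72059 TPM in the motoneuron library (7.21%), 56670 in V2a (5.67%) and 38657 in V3 (3.87%), so the motoneuron library held 1.27 times the V2a level and 1.86 times the V3 level. Of the 50 members with at least 10 reads in at least 1 library, motoneurons were above both interneuron libraries in 35 (70%), where 31.4% of all 989 such miRNAs were, and below both in 4 (8%), where 34.2% of all were. The median log2 ratio of motoneurons over the interneuron mean was 0.65, against -0.22 for all. The order motoneurons, V2a, V3 from high to low held for 31 members (62%), against 22.3% of all, and V2a was above V3 in 44 members (88%), against 73.1% of all.

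A pan-neuronal list (miR-124, miR-128 and others, 7 rows) had the same order, at 15253 TPM in the motoneuron library, 13000 in V2a and 6330 in V3. The neural progenitor list (miR-9 and miR-92b, 3 rows) was highest in V3, at 165939 TPM against 75248 in motoneurons and 76666 in V2a. The part of either cell state in the order of the cluster's levels was not tested. The mesenchymal list was low in all 3 libraries, from 199 TPM in motoneurons to 310 in V3. The upstream list of the locus had 20 of 30 rows above both interneurons and 2 below both, with a median log2 ratio of 0.61. Of all 989 miRNAs considered, 31.4% were above both and 34.2% below both, with a median of -0.22.

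The most abundant member was now miR-543-3p, at 17621 TPM in the motoneuron library, 15275 in V2a and 12781 in V3, which is 24.5%, 27.0% and 33.1% of the summed members. Its share was thus highest where the cluster was lowest, and motoneurons held 1.15 times the V2a level and 1.38 times the V3 level. miR-381-3p had 11338, 10217 and 4749 TPM, and miR-541-5p 10849, 7062 and 5568 TPM, in the same order of libraries. Both were highest in motoneurons and lowest in V3. miR-134-5p was instead highest in V2a, at 5248 TPM, with 4434 in motoneurons and 3787 in V3.

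The level of miR-379-5p was 4092 TPM in the motoneuron library, 3624 in V2a and 1990 in V3. miR-411-5p had 2123, 2233 and 1254 TPM, so V2a and motoneurons lay close together above V3. miR-409-3p had 3729, 3066 and 2156 TPM, miR-495-3p 3469, 2219 and 1455, miR-323-3p 2740, 1561 and 881, and miR-300-3p 2107, 1620 and 996. Those 4 followed the commonest order, with motoneurons highest and V3 lowest.

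miR-369-3p was the only member at least 4-fold above both interneuron libraries, a size reached by 2.12% of all miRNAs considered. Its level was 3847 TPM in the motoneuron library, 887 in the V2a and 374 in the V3 library. Motoneurons thus held 4.34 times the V2a level (95% counting interval 4.18 to 4.50) and 10.3 times the V3 level (9.75 to 10.9). Its partner arm miR-369-5p differed far less, at 1224, 864 and 701 TPM. The log2 ratio of 5p over 3p in the miR-369 hairpin was therefore -1.65 in motoneurons, -0.04 in V2a and 0.91 in V3. The 3p arm held most of the hairpin's reads in motoneurons, the arms were about even in V2a, and the 5p arm led in V3.

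After miR-369-3p the highest ratios over the interneuron mean were those of miR-667-3p and miR-410-5p. miR-667-3p had 108 TPM in the motoneuron library, 28.2 in V2a and 20.7 in V3, and reached 4-fold above both with median of ratios or TMM scaling. miR-410-5p had 97.9, 45.0 and 10.51 TPM, 2.18 times the V2a level and 9.31 times the V3 level (95% counting interval 6.70 to 13.1), while miR-410-3p, the major arm, had 276, 147 and 143. The seed partners of the upstream end were both detected, miR-411-3p at 415, 176 and 71.8 TPM and miR-379-3p at 31.3, 19.0 and 8.27. Both were highest in motoneurons and lowest in V3, miR-411-3p at the higher level in each library. At E10.5 miR-379-3p was instead the higher in each library. The 2 share a bundle in the E10.5 table, so the division of reads between them is uncertain.

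miR-1193-5p was the only member at least 4-fold below both, a size reached by 1.01% of all, and rests on few reads. It had 2 reads in motoneurons, 50 in V2a and 28 in V3, or 0.62, 12.2 and 7.41 TPM. V2a held 19.8 times the motoneuron level (95% counting interval 5.19 to 168) and V3 held 11.96 times (3.02 to 104). The other 3 members below both were miR-380-5p, miR-376c-3p and miR-539-5p. miR-376a-3p and miR-539-5p, the next lowest ratios, were also scarce, with 0.59, 4.19 and 0 TPM for the former and 1.97, 3.78 and 4.57 TPM for the latter in the motoneuron, V2a and V3 libraries.

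**Figure D3:**
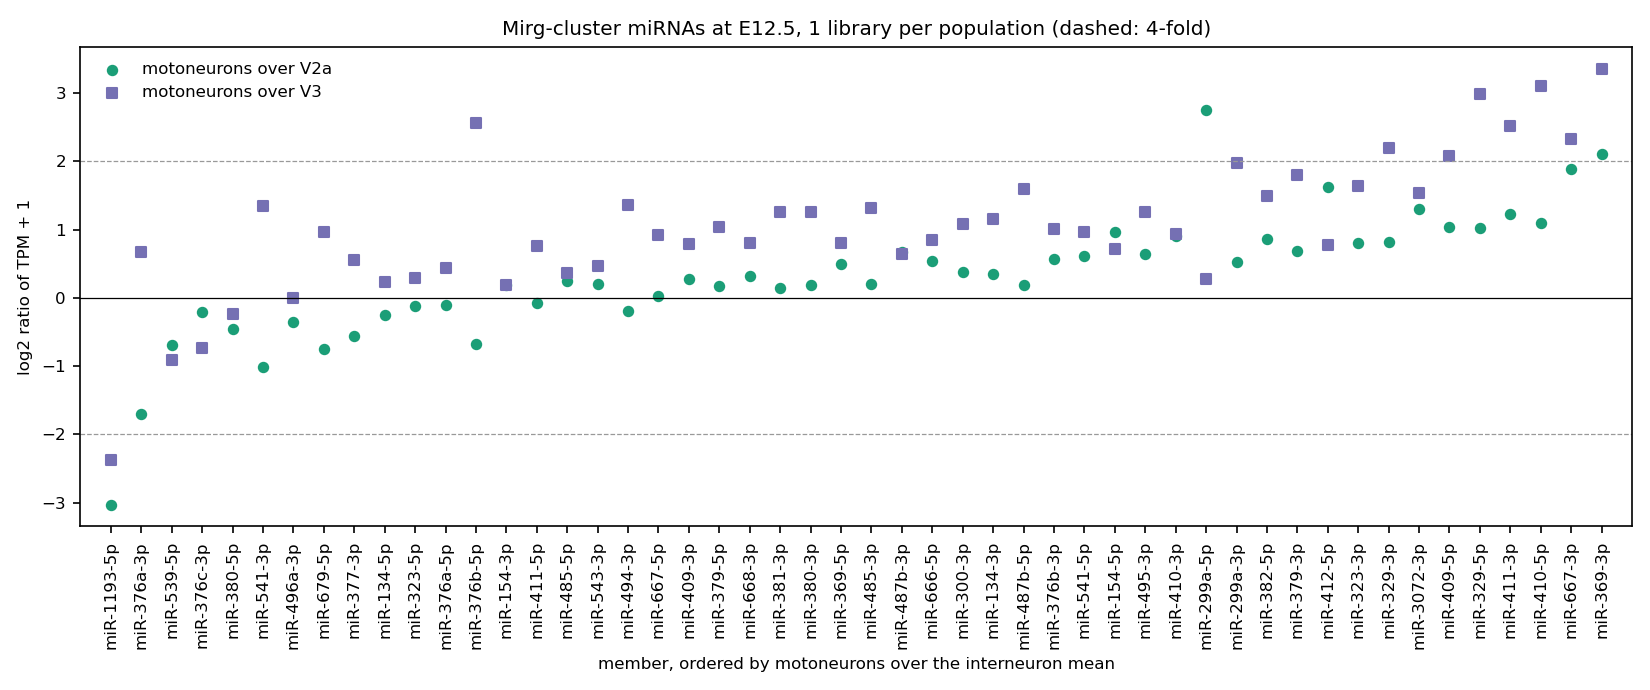
Log2 ratio of TPM + 1 in E12.5 motoneurons over V2a (green circles) and over V3 (purple squares) for 50 members, ordered by the ratio over the interneuron mean, with dashed lines at 4-fold. miR-369-3p is the only member with both points above the upper line and miR-1193-5p the only one with both below the lower line.

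Values of the 2 stages are set side by side only as a description, since stage and table cannot be told apart. miR-541-5p was the most abundant member in all 4 E10.5 libraries and at rank 2 or 3 at E12.5, while miR-543-3p went from ranks 3 to 6 among E10.5 libraries to rank 1 in the 3 E12.5 libraries. E10.5 ranks are by RPM, without correction for length, and E12.5 ranks by TPM, with it. By inferred reads, miR-541-5p, of 25 nt, was above miR-381-3p in the E12.5 motoneuron library, at 43800 against 40283. miR-494-3p, at 971 to 3087 RPM at E10.5, had 5.91 TPM in the E12.5 motoneuron library, 6.90 in V2a and 1.68 in V3. miR-679-5p likewise had 73.0 to 282 RPM at E10.5 and 4.22, 7.79 and 1.68 TPM at E12.5. miR-758-3p, which was called lower in E10.5 motoneurons (261 and 280 RPM against 146 and 150, log2 fold change -0.87, limma adjusted p = 0.0232), was listed at 0 in all 3 E12.5 libraries. That E10.5 call was lost under each scaling tried apart from deposited RPM and totals that omit the mesenchymal and muscle lists, and without either motoneuron library or the second GFP-negative one. Of 403 rows with a RefSeq length past the E10.5 filter, 4 were listed at 0 in all 3 E12.5 libraries.

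The leading arm also differed between tables in 3 hairpins. The log2 ratio of 5p over 3p for miR-329 was above 0 in each E10.5 library, as given above, and was -2.62 in motoneurons, -2.86 in V2a and -3.69 in V3 at E12.5. For miR-485 the 3p arm led at E10.5 (log2 ratios of -3.51, -2.84, -2.86 and -2.27 over the GFP-negative and then the motoneuron libraries) and the 5p arm led at E12.5 (4.05 in motoneurons, 4.02 in V2a and 5.11 in V3). The E10.5 ratios of miR-485 have no correction for length, because miR-485-5p had no RefSeq sequence. Its E12.5 values were read as already corrected for length. The remaining one, miR-376a, was scarce. Of the 25 hairpins with both arms, 7 had more 5p in all 7 libraries and 10 more 3p. The hairpin of miR-379 was among the first, with log2 ratios from 3.69 to 4.597 in E10.5 libraries and from 7.03 to 7.91 in E12.5 libraries, and that of miR-134, with its 5p arm far above the 3p arm, was another. The ratios of miR-379 rest on miR-379-3p, whose division of reads with miR-411-3p is uncertain. miR-410 had more 3p in all 7. Summed over members, 5p arms made up 47.4% to 56.6% of the total RPM in E10.5 libraries and 35.4% to 37.8% of the total TPM in E12.5 libraries. Only the latter are corrected for length.

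**Figure D4:**
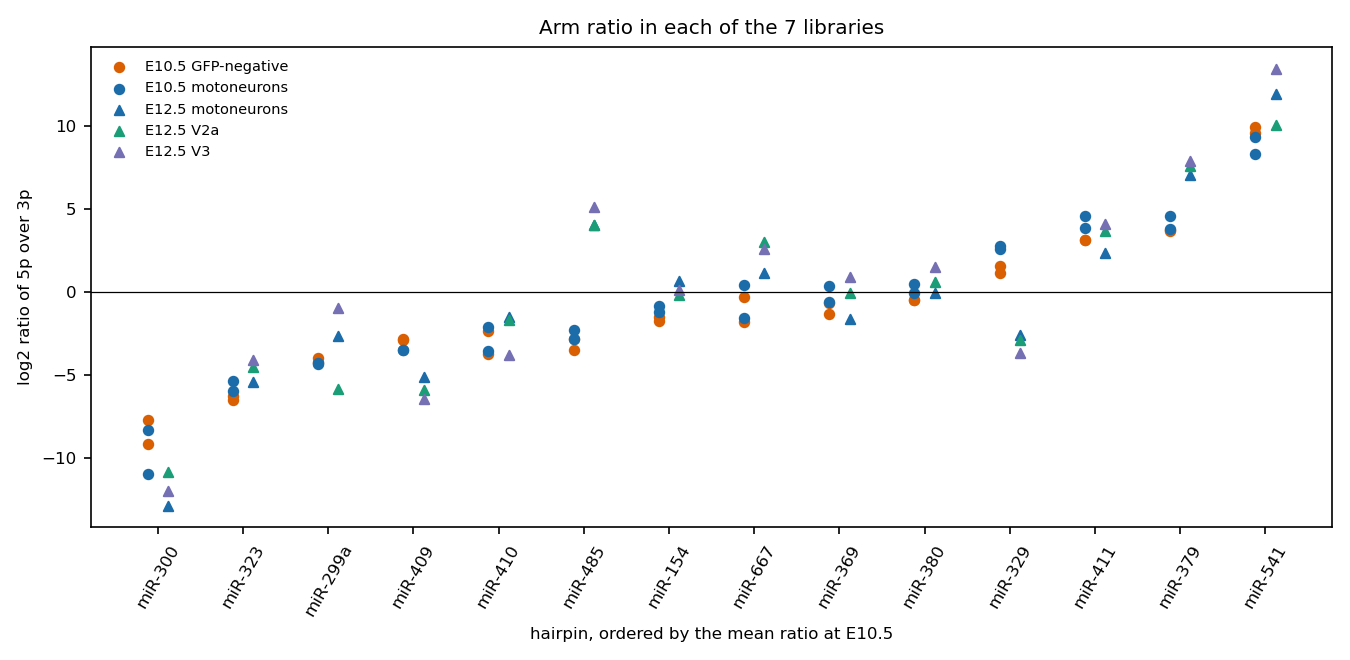
Log2 ratio of the 5p over the 3p arm in each of the 7 libraries for 14 hairpins with both arms above 0 in every library, ordered by the mean at E10.5. Circles are E10.5 and triangles E12.5 libraries, and miR-485 and miR-329 lie on opposite sides of the zero line at the 2 stages.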

How the data were processed

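Small RNA libraries of sorted mouse spinal cells (2 motoneuron and 2 GFP-negative at E10.5, 1 each of motoneurons, V2a and V3 at E12.5) were made with a NEBNext kit, per the labels' protocols. The submitters' processing notes name Bowtie2 with no version. For the miRNA annotation, the build and the program that counted reads, a name is not given in the sources used here. Values in the deposited E10.5 table are RPM, each library summing to 1000000, and rows with common reads are grouped into bundles. The authors deposited the E12.5 table without naming a unit, and its values were read as FPKM because value times RefSeq length fell on whole reads (within 0.05) for 74.9% to 80.8% of low values. They were rescaled to TPM. Depths of both tables were inferred from the value of 1 read. In single-row bundles 97.3% to 100% of low E10.5 values were whole, but not enough over all rows for a count model. The 3 columns of the authors' own means and ratio were not used.

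For the E10.5 groups, two-sided moderated tests with an abundance trend (limma 3.58.1, R 4.3.3) were run on log2(RPM + 1), which understates changes of low miRNAs, over 492 rows that reached 15.2 RPM in at least 2 libraries, with Benjamini-Hochberg adjustment over all of them and a threshold of 0.05. The procedure was also run on simulated counts with independent rows, a fixed dispersion and changes balanced between up and down. Rows of these data can share reads and their changes are not balanced, so no conclusion is drawn from that run. At E12.5 log2 ratios of TPM + 1 were described without a test, over rows with at least 10 reads in at least 1 library, and exact binomial intervals were taken on inferred reads. Median of ratios and TMM factors were computed over the tested rows. Sequences are from RefSeq (GRCm38.p6), which matched 56 of 60 members by name. Named members were the 10 most abundant at each stage, the 10 largest differences past the threshold at E10.5, members called against the majority, those at least 4-fold above or below both interneurons with the 3 highest and 3 lowest ratios, both arms of miR-369, miR-134, miR-379 and miR-410, and members sharing a seed. Others named beside a count were chosen after their values were seen. The members and lists were chosen with earlier results of these data known. Alternatives covered pseudocounts, filters, scalings, summed bundles, a replicate block and each library left out.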

Additional observations from a re-analysis of the deposited data

How the results depend on the processing

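At E10.5 the count of members lower in motoneurons was 23 (48.9%, against 30.7% of all tested). It was 15 with median of ratios scaling (31.9% against 23.6%) and 12 with quantile normalization (25.5% against 19.9%), and the count of higher members went from 0 to 1 with these, with TMM factors and with totals lacking the 5 most abundant miRNAs. It ran from 13 to 20 with 1 library left out (28.9% against 25.4% of all at the lowest, 44.4% against 27.2% without the first GFP-negative library). With the rows of each bundle summed, 19 of 43 bundles made up of members alone were lower (44.2% against 29.5% of all). The median log2 fold change of the members, -0.74, was -0.39 with median of ratios, -0.40 with TMM, -0.36 without the 5 most abundant, -0.87 without the mesenchymal and muscle lists and -0.25 with quantile normalization, and -0.85 to -0.79 with 1 library left out. The log2 ratio of summed members, -0.76, was -0.41, -0.42, -0.38, -0.89 and -0.30 under the same scalings in that order, and -0.85 to -0.66 with 1 library left out. Quantile normalization reversed the called members miR-411-5p (0.043), miR-300-3p (0.14), miR-409-3p (0.069) and miR-382-5p (0.24), and turned the uncalled miR-323-3p (0.27), miR-495-3p (0.30) and miR-134-5p (0.29) positive. Over the named members, 286 of 345 single values kept both their sign and their side of the threshold, and 16 values of 9 members changed sign. The count of hairpins with a changed arm ratio was 0 under each alternative run. The causes were not tested.

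The replicate numbers are not said to pair libraries, and with 2 pairs a correlation of deviations of 0.26 does not show it. With the replicate number as a block 27 members were lower (57.4% against 32.9% of all), the same 23 and 4 more.

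At E12.5 the median log2 ratio, 0.65, was 0.53 with a pseudocount of 10, 0.67 with values as deposited, 0.73 with median of ratios, 0.72 with TMM and 0.69 with at least 50 reads required. With 50 reads, members below both numbered 2 and those 4-fold below 0, which was also 0 with a pseudocount of 10. Members 4-fold above both numbered 2 with median of ratios and with TMM. Depth limits the scarce arms most, such as miR-1193-5p with 2 motoneuron reads, and the E12.5 libraries have no replicates.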
